A study of Homo sapiens with 10 samples.

Results

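Giant cytoskeletal proteins, the cross-linkers and scaffolds that tie actin, microtubules and intermediate filaments together, were followed in mRNA level and ribosome density after p53 activation. The list held 9 genes, chosen by their ribosome density and TE values over these same libraries: the plakins PLEC, MACF1 and DST, the filamins FLNA and FLNC, the spectrin SPTAN1, the scaffold AHNAK and the intermediate filament proteins NES and VIM. Of these, 8 had a row in both expression tables, among 11258 transcripts that did, and DST was not analysed here. The values that chose the genes are the values reported, so they are given as a description and without a test. All libraries came from BJ cells, human foreskin fibroblasts immortalized by expression of hTERT, the catalytic subunit of telomerase. One culture condition was untreated (control), and the others received nutlin-3a, a small molecule that frees p53 from its inhibitor MDM2, for 2, 4, 6 or 19 h. Each condition gave 1 library of RNA-Seq from polyA RNA and 1 of Ribo-Seq, the sequencing of ribosome-protected fragments, 10 libraries in all, and a difference between 2 libraries therefore has no replicate check.

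Plakins and spectrins are very long, rod-like proteins that link filament systems to each other and to the membrane, and filamins bundle and cross-link actin filaments. Vimentin, the product of VIM, is the main intermediate filament protein of fibroblasts, and nestin, the product of NES, copolymerizes with it. Ribosomes on an mRNA are counted as ribosome density, and the ratio of density to mRNA level is the translational efficiency (TE), given here as a log2 value.

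The RefSeq sequence (GRCh38.p14) around the annotated start of the mRNA is shown for 6 members, because mRNAs that begin with a C followed by a run of pyrimidines (5′ terminal oligopyrimidine mRNAs) are a class known for translational control by mTOR. Each window of 30 bases reads 5′ to 3′ on the gene's strand, with 10 bases before the annotated start and 20 from it on. Capitals mark each whole run made of a C and at least 4 following bases that are C or T.
NES, chr1:156677388-156677417, minus strand: cccgaCTCTCagtcgctcaggctaCTCCCa
FLNC, chr7:128830396-128830425, plus strand: ggcccagcccgCCCTTCCCgagcaccgctc
AHNAK, chr11:62545807-62545836, minus strand: CCCCCgccccagagcctggcccggcgccag
FLNA, chrX:154374615-154374644, minus strand: cggcccattcgcgtggaggcgcgtcgcgcg
SPTAN1, chr9:128552577-128552606, plus strand: gcgcgtcgccgccactacccgctgcggagt
VIM, chr10:17228231-17228260, plus strand: atcgtgatctgggaggcccacgtatggcgc
Such a run lay in 3 of the 6 windows (NES, FLNC and AHNAK), against 38.4% of the 35116 annotated starts of all genes on the gene's strand and 36.2% on the other strand. In none of the 6 did the run begin at the annotated first base, and in FLNC it began 1 base after it. The AHNAK run began at -10 and the first NES run at -5 from the annotated start, and both ended before it.

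The transcripts of the members are among the longest measured. The lengths recovered from the spacing of the deposited values were 15249 nt for PLEC, 18787 nt for AHNAK, 9188 nt for FLNC, 8382 nt for FLNA, 7872 nt for SPTAN1 and 5558 nt for NES. MACF1 fitted 23438 as well as 23440 nt, and VIM, at 2128 nt, was the short member. The reads behind a value ran from 12160 (SPTAN1 at 4 h) to 254274 (VIM at 6 h) in RNA-Seq and from 707 (MACF1 in the control) to 131571 (VIM at 2 h) in Ribo-Seq. The counting errors below come from these reads and cover counting error only.

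In untreated fibroblasts the giant members had low ribosome density relative to their mRNA level. VIM had 4194 FPKM (fragment number scaled to transcript length and to the library's total) of mRNA and 3177 FPKM of ribosome density, a TE of -0.40 that 43.4% of the 7015 tested genes fell below. Genes were tested where at least 1 RNA-Seq and 1 Ribo-Seq library reached 5 FPKM. The other 7 members had TE between -3.58 (AHNAK) and -2.47 (FLNC) in the control, where the median of the tested genes was -0.27, and at most 0.584% of tested genes were lower than any of them. AHNAK mRNA, at 305 FPKM, was 12.0 times its density. PLEC mRNA was 11.4 times and NES mRNA 6.44 times its density. Of the 702 tested genes in the lowest 10% of control TE, 6 were members.

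mRNA levels of the members stayed close to the control. PLEC, which encodes the plakin plectin, had 167 FPKM of mRNA in the control and 180, 153, 109 and 194 FPKM at 2, 4, 6 and 19 h. The 6 h library was the low one, with a log2 change of -0.61 (counting SE 0.0089), and the 19 h library was the highest of the 5. NES had 138 FPKM of mRNA in the control and 139, 126, 111 and 100.1 FPKM, so that the 6 and 19 h libraries were the lowest, with log2 changes of -0.32 and -0.47. FLNA, the abundant filamin of non-muscle cells, had 875 FPKM in the control and 933, 914, 806 and 842 FPKM. FLNC, the filamin best known from muscle, had 157 FPKM in the control and 170, 188, 144 and 185 FPKM. In both filamins the 6 h library had the least mRNA. SPTAN1, the non-erythroid alpha spectrin, had 74.4 FPKM in the control and 71.3, 63.2, 60.1 and 73.4 FPKM. AHNAK, a scaffold at the plasma membrane, had 305 FPKM in the control and 304, 278, 280.3 and 283 FPKM. Neither moved by more than 0.31 on the log2 scale. MACF1, which links microtubules to actin, had 25.9 FPKM in the control and 26.5, 22.6, 22.3 and 24.6 FPKM. VIM had 4194 FPKM in the control and 4037, 4146, 4337 and 3431 FPKM, with the 19 h library lowest at a log2 change of -0.29 (counting SE 0.0046).

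A difference between 2 libraries was called when it passed a cut-off that slides with level, a fixed multiple (that of the study's methods) of the standard deviation of the change among the tested genes of most similar level. None of the 7 tested members was called in mRNA at any time. The background over all 7015 tested genes was 3.36% called higher and 0.741% lower at 2 h, 3.51% and 2.88% at 4 h, 1.63% and 4.78% at 6 h, and 1.61% and 5.1% at 19 h. The median mRNA change of the 8 members was 0.018, -0.13, -0.17 and -0.067 at 2, 4, 6 and 19 h, beside -0.045, -0.074, -0.0024 and -0.067 for all tested genes. The members' mRNA took between 2.58% and 2.84% of all RNA-Seq reads in the 5 libraries.

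**Figure D1:**
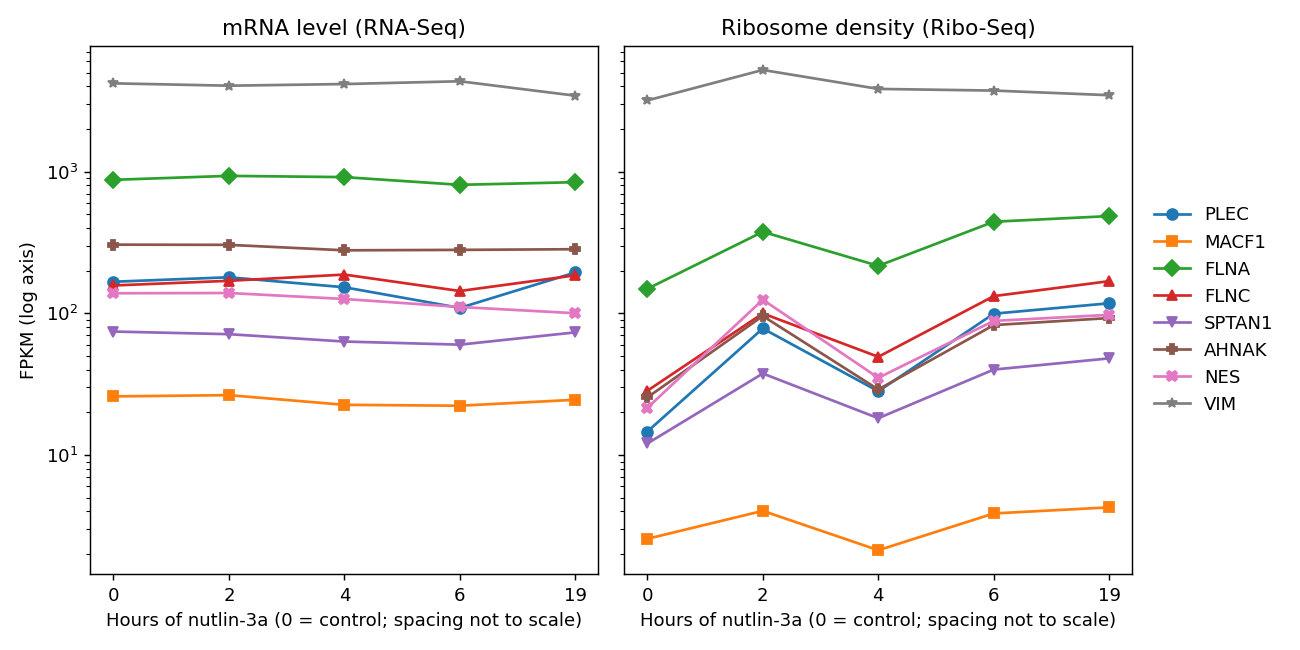
mRNA level (left, RNA-Seq) and ribosome density (right, Ribo-Seq) of the 8 members in FPKM on a log axis, against hours of nutlin-3a, with 1 library per point. The mRNA lines are nearly flat, while the density of the giant members is high at 2 h, low at 4 h and high again at 6 and 19 h, and VIM, at the top, and MACF1, at the bottom, change least.

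Ribosome density of the giant members other than MACF1 was 2.53 to 8.04 times the control in 3 of the 4 treated libraries. PLEC density was 14.6 FPKM in the control and 78.2, 28.2, 99.4 and 118 FPKM at 2, 4, 6 and 19 h, which is 5.34, 1.93, 6.79 and 8.04 times the control. Every treated library was above the control, and the 4 h library was far below the other three. NES density was 21.5 FPKM in the control and 125, 35.1, 88.4 and 97.5 FPKM. It was highest at 2 h, at 5.80 times the control, and in the 4 h library it was 1.63 times the control. FLNA density was 149 FPKM in the control and 376, 216, 443 and 485 FPKM. FLNC density was 28.4 FPKM in the control and 99.8, 49.3, 132 and 169 FPKM. Both filamins were highest at 19 h, at 3.26 times the control in FLNA and 5.93 times in FLNC.

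SPTAN1 density was 12.1 FPKM in the control and 37.6, 18.2, 40.1 and 48.1 FPKM, with the 19 h library highest at 3.99 times the control. AHNAK density was 25.5 FPKM in the control and 95.7, 29.0, 82.6 and 92.6 FPKM. At 4 h AHNAK was only 1.14 times the control, while the other 3 treated libraries were 3.24 to 3.75 times the control. MACF1 had little density, with 2.56 FPKM in the control and 4.04, 2.13, 3.87 and 4.28 FPKM. It never reached 5 FPKM in Ribo-Seq and was not among the tested genes, and it was the member whose 4 h value lay below the control (log2 change -0.27, counting SE 0.076). VIM density was 3177 FPKM in the control and 5214, 3831, 3729 and 3460 FPKM. The 2 h library was the high one for VIM, at 1.64 times the control, and the 6 and 19 h libraries were 1.17 and 1.09 times the control. The 7 tested members were above 5 FPKM in the control of both assays, so none entered through a treated library.

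In density, 7, 4, 6 and 6 of the 7 tested members were called higher at 2, 4, 6 and 19 h and none lower. The background was 4.82%, 6.22%, 2.62% and 1.91% of all tested genes called higher and 1.47%, 1.27%, 4.69% and 5.37% called lower, and nothing is read from the members' counts, since their density chose them. The 4 h count was 1 (FLNC) when the median change of all tested genes, 0.10 at 4 h, was first taken off. Of all tested genes, 297 were then called higher and 151 lower. The median density change of the 8 members was 1.73, 0.57, 1.71 and 1.93, beside 0.016, 0.10, -0.020 and -0.19 for all tested genes. From 2 to 4 h, density was lower in 8 of 8 members, by a median log2 difference of -1.03, while the median of all tested genes was 0.084. From 4 to 6 h it was higher in 7 of 8 members, with a median of 1.24 and VIM as the exception at -0.039. The 7 members other than VIM together took 0.248% of Ribo-Seq reads in the control and 0.814%, 0.363%, 0.889% and 1.02% at 2, 4, 6 and 19 h. In a bulk culture, more ribosomes on these mRNAs in each cell and a different make-up of the cells cannot be told apart.

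The order of the members by density changed with time. FPKM is per length, though unique-hit counting and the share of untranslated sequence can still shift one gene against another. VIM was first and FLNA second in every library of both assays, and MACF1 was last. In the control, density then fell from FLNC (28.4 FPKM) over AHNAK, NES and PLEC to SPTAN1 (12.1 FPKM), whereas at 19 h the order was FLNC (169 FPKM), PLEC (118 FPKM), NES, AHNAK and SPTAN1 (48.1 FPKM). PLEC thus had the sixth highest density in the control and the fourth highest at 19 h. NES and PLEC in mRNA at 6 h, and AHNAK and PLEC in density at 4 h, were the neighbours not apart by 1.96 counting SEs.

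TE of the giant members was correspondingly higher, and most in the plakin PLEC and in NES. PLEC TE was -3.51 in the control and -1.20, -2.44, -0.14 and -0.72 at 2, 4, 6 and 19 h. The changes from the control were 2.31, 1.07, 3.38 and 2.79 with counting SEs of 0.032 to 0.035, and the change at 6 h was the largest of all 7015 tested genes. In density alone PLEC ranked 16 at 6 h (log2 change 2.76), and its mRNA was lowest in that library (log2 change -0.61). At 6 h, 54.8% of tested genes had a lower TE than PLEC, against 0.0855% in the control. NES TE was -2.69 in the control and -0.16, -1.85, -0.33 and -0.038. Its change of 2.53 at 2 h was the largest of all tested genes, with PLEC second. The changes of NES at 4, 6 and 19 h were 0.84, 2.36 and 2.65.

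Of the filamins, FLNC had the larger TE changes in these libraries. FLNC TE was -2.47 in the control and -0.76, -1.93, -0.12 and -0.14, which is a change of 1.70, 0.54, 2.35 and 2.33. FLNA TE was -2.55 in the control and -1.31, -2.08, -0.86 and -0.79, a change of 1.24, 0.48, 1.69 and 1.76. SPTAN1 TE changed by 1.70, 0.83, 2.04 and 2.01, and AHNAK TE by 1.91, 0.32, 1.82 and 1.97. AHNAK stayed at a low TE in all 5 libraries, between -3.58 and -1.61, while SPTAN1 went from -2.62 in the control to -0.58 at 6 h. MACF1 TE changed by 0.63, -0.070, 0.81 and 0.82 with counting SEs of 0.071 to 0.078, less than any other giant member. VIM TE was -0.40 in the control and 0.37, -0.11, -0.22 and 0.012. Its largest change was 0.77 at 2 h, and at 6 h it was 0.18, near the median of all tested genes.

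**Figure D2:**
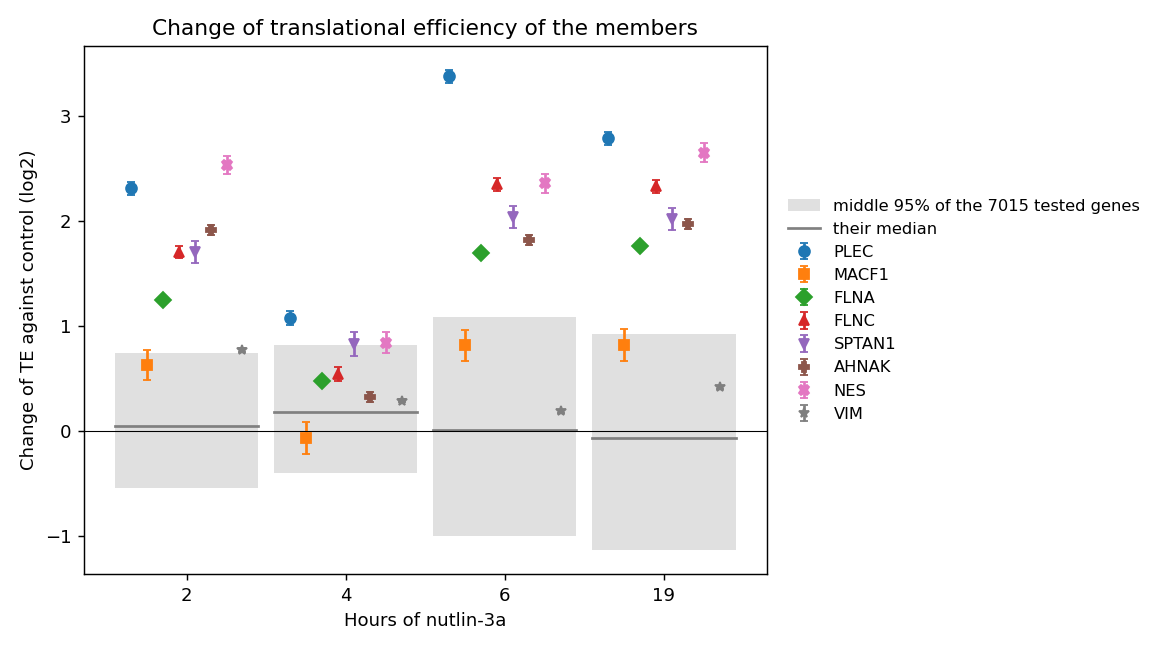
Log2 change of TE against the control for each member at 2, 4, 6 and 19 h of nutlin-3a. Points are single libraries of each assay and bars are 95% counting intervals, the grey band holds the middle 95% of the 7015 tested genes and the grey line their median, and PLEC, NES, FLNA, FLNC, SPTAN1 and AHNAK lie above the band at 2, 6 and 19 h, with VIM just above it at 2 h, while at 4 h PLEC, NES and SPTAN1 do.

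In TE, 7, 5, 6 and 6 of the 7 tested members were called higher at the 4 times, and none lower. The background was 5.49%, 12.1%, 4.01% and 2.55% of all tested genes called higher and 1.87%, 0.827%, 3.12% and 5.39% called lower, and again nothing is read from the members' counts. VIM was called at 2 h and not later, and AHNAK was the other tested member without a call at 4 h. The median TE of all tested genes also moved at 4 h, by 0.18. With that median taken off, 3 members remained called at 4 h (PLEC, NES and SPTAN1), and the calls among all genes went from 847 higher and 58 lower to 311 higher and 235 lower. The same step turned 385 higher and 131 lower into 306 and 178 at 2 h, and 179 and 378 into 237 and 299 at 19 h, with no change in the members' counts. Against the 2 h library in place of the control, 6 members were called lower at 4 h, PLEC and FLNC were called higher at 6 h, and none was called at 19 h. The median TE change of the 8 members was 1.70, 0.51, 1.93 and 1.99, beside 0.045, 0.18, 0.0021 and -0.067 for all tested genes.

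The 4 treated libraries of each assay are not equally placed against the control. The study reports a batch effect by sequencing run in Ribo-Seq, and set each condition against the control of its own batch. Its list of sequencing runs includes the 6 and 19 h libraries with a control, and not those of 2 and 4 h. The labels of the libraries name no run. In that list, a smaller share of Ribo-Seq reads starts at the first base of a codon in the control, 6 h and 19 h libraries of this run than in the other runs. Whether the step down at 4 h in the giant members moves with a run was not tested.

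Transcript length moved with TE in the same libraries. Over the 7015 tested genes, each doubling of length came with a TE change of 0.11, -0.018, 0.17 and 0.16 at 2, 4, 6 and 19 h. The 179 tested genes of 8000 nt or more, 4 of them members, had a median TE change of 0.34, 0.17, 0.53 and 0.31, and the 498 genes under 1000 nt had -0.11, 0.20, -0.26 and -0.31. Among the 934 tested genes of 5000 nt or more, the 6 tested members in this class ranked between 1 and 36 at 2 h, between 5 (PLEC) and 239 (AHNAK) at 4 h, between 1 and 31 at 6 h and between 3 and 21 at 19 h. These ranks rest on the values that chose the members. With the length trend removed, the members' median TE change was 1.45, 0.36, 1.57 and 1.72. The 702 genes of the lowest 10% of control TE, which include 6 members, had median TE changes of 0.12, 0.26, 0.29 and 0.15.

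**Figure D3:**
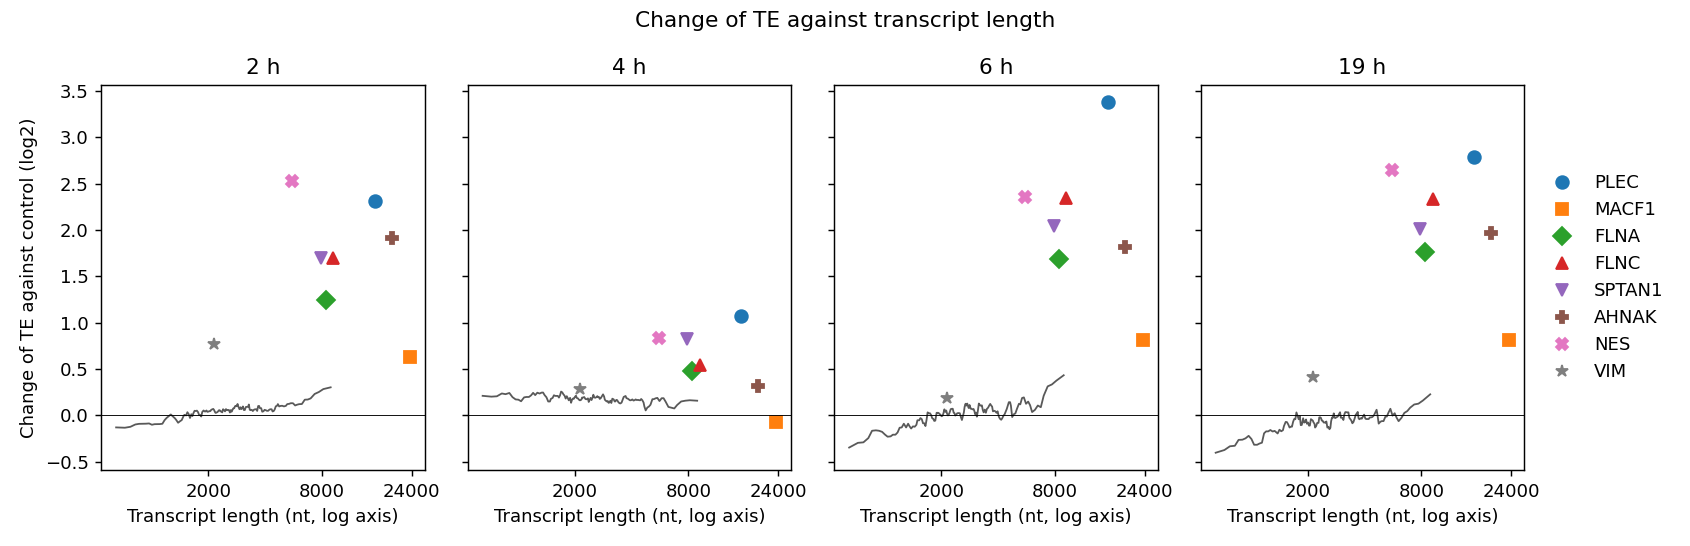
Log2 change of TE against the control (vertical) plotted on transcript length in nt (log axis), in 1 panel per time, with the members as symbols and the running median over 201 tested genes ordered by length as a grey line. The line climbs with length at 2, 6 and 19 h and is flat at 4 h, and ends at 8905 nt, before FLNC, PLEC, AHNAK and MACF1. NES, SPTAN1 and FLNA lie above it, and MACF1 is lowest among the giants.

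The members were set beside a list of 40 further cytoskeletal linkers and scaffolds, of which 27 were tested, with transcripts of 2493 to 18254 nt. Their median TE change was 0.58, 0.27, 0.82 and 0.65, and 14, 6, 12 and 11 of the 27 were called higher, with none called lower, beside the background of 5.49%, 12.1%, 4.01% and 2.55% called higher. With the length trend removed the median was 0.40, 0.10, 0.65 and 0.58. Among the largest changes at 19 h were those of MYH9, the non-muscle myosin heavy chain IIA, and SPTBN1, the beta spectrin that pairs with SPTAN1. SPTBN1 TE changed by 1.47, 0.84, 1.77 and 1.63, and SPTAN1 TE by 1.70, 0.83, 2.04 and 2.01. SPTBN1 had a control density of 4.72 FPKM, under 5 FPKM, and was tested only through its treated libraries. The same holds for some other genes of this list, so nothing is read from its counts and medians. MYH9 density went from 129 FPKM in the control to 346, 226, 348 and 310.3 FPKM at 2, 4, 6 and 19 h. The lowest changes at 19 h were in the microtubule-associated proteins MAP4 and MAP1B, at -0.20 and -0.12. Their transcripts are 8920 and 12034 nt long, and their TE at 2 h had changed by -0.035 and 0.064.

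Giant proteins outside the cytoskeleton also had a higher median TE change at 2, 6 and 19 h than at 4 h. Of 50 listed genes 28 were tested, with median TE changes of 1.09, 0.19, 1.25 and 1.25. In order of time 23, 1, 19 and 19 were called higher, beside the background of 5.49%, 12.1%, 4.01% and 2.55% called higher. The medians with the length trend removed were 0.80, 0.049, 0.92 and 1.02. COL7A1, the anchoring-fibril collagen VII, had a density of 5.97 FPKM in the control and 20.2, 8.51, 74.2 and 110 FPKM at 2, 4, 6 and 19 h, with its mRNA also higher at 19 h (109 FPKM against 30.3). The TE changes of ASPM and MKI67, a spindle protein and a proliferation marker, were the largest at 19 h, but mRNA and density of both were below the floor of 1 FPKM there (mRNA 0.691 and 0.706 FPKM), and the values rest on that floor. The spindle is built of microtubules, so the name of this list does not hold for every gene in it. NF1, the neurofibromin gene, and CHD8, a chromatin remodeller, were lowest at 19 h, at -0.56 and 0.12. Without the 3 tested genes whose mRNA fell under the floor in a library, the median at 19 h was 1.10. Of the remaining 25, 16 were called higher, beside 2.55% of all tested genes. Some of the 28, such as ASPM (3.40 FPKM) and CHD8 (4.54 FPKM), had a control density under 5 FPKM and were tested only through treated libraries. Higher density thus helped them to enter, and nothing is read from the counts and medians of this list.

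Short cytoskeletal proteins had a median TE change below 0 at 2, 6 and 19 h and above 0 at 4 h. Of 50 listed actins, tubulin partners, small actin binders and others of that kind, 47 were tested, and their median TE change was -0.059, 0.28, -0.077 and -0.27. In order of time 1, 9, 0 and 0 were called higher and 3, 1, 1 and 4 lower, beside 5.49%, 12.1%, 4.01% and 2.55% higher and 1.87%, 0.827%, 3.12% and 5.39% lower over all tested genes. With the length trend removed the median was -0.062, 0.11, -0.023 and -0.018. The highest changes at 19 h were 0.75 in GSN, the actin-severing gelsolin, 0.44 in EZR, the membrane linker ezrin, and 0.43 in VASP, an actin elongation factor. The lowest were -1.69 in CFL2, a cofilin, and -1.19 in MYL12B, a myosin regulatory light chain. CFL2 density was 19.2 FPKM in the control and 12.0, 12.3, 6.85 and 4.54 FPKM.

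**Figure D4:**
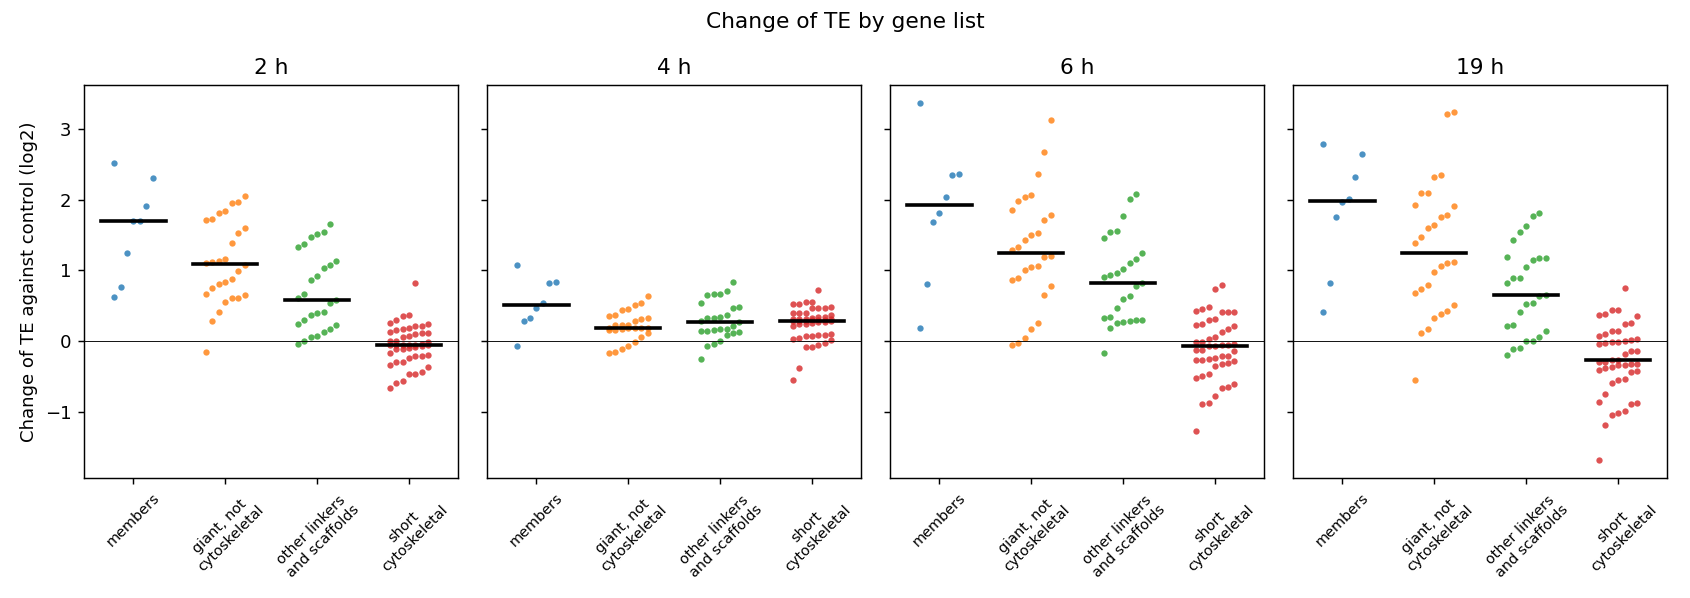
Log2 change of TE against the control at 2, 4, 6 and 19 h for the 8 members and the tested genes of 3 other lists (28 giant proteins outside the cytoskeleton, 27 other cytoskeletal linkers and scaffolds, 47 short cytoskeletal proteins), with 1 point per gene and the list median as a black bar. The medians fall in that order at 2, 6 and 19 h, and at 4 h the 4 medians lie between 0.19 and 0.51.

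The genes whose 4 TE changes were nearest to a member's, by Euclidean distance over the 4 times among 7008 tested genes outside the list, are named next. Nearest to PLEC were HSPG2 (perlecan, a basement membrane proteoglycan, 14327 nt, distance 0.89), LRP1 (an endocytic receptor, 14897 nt, 1.41) and C14orf49 (1.60). C14orf49 and HSPG2 were also among the 3 nearest to NES, at 0.98 and 1.09, with TNC (the matrix protein tenascin-C) at 1.07. C14orf49, at 3275 nt, has TE changes of 1.91, 1.01, 2.07 and 1.96 and is listed today as SYNE3, a nuclear envelope nesprin. FLNA had nearer neighbours, the collagen genes COL18A1 (distance 0.26) and COL5A3 (0.31) and the laminin gene LAMB2 (0.27). VIM was nearest to EPHA4 (0.17), an ephrin receptor, to VPS33B (0.17), a vesicle sorting protein, and to PPT2 (0.17), a thioesterase.

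For the series as a whole, the totals to which the values were scaled ran from 23845559 to 27554288 reads in RNA-Seq and from 7744900 (19 h) to 14460726 (4 h) in Ribo-Seq. Fibroblast markers were present, with 10 of 10 above 1 FPKM and a summed level of 5005 to 8305 FPKM. The summed endothelial markers (0.184 to 0.377 FPKM) and blood cell markers (0.307 to 0.697 FPKM) were near 0. The epithelial list summed to 243 to 327 FPKM, most of it from KRT18 (293 FPKM in the control). Of that list only the keratins KRT8 and KRT18 passed 1 FPKM, with CDH1 at 0.017 FPKM in the control. The p53 targets CDKN1A and MDM2 went from 68.6 and 14.9 FPKM of mRNA in the control to 1316 and 259 FPKM at 19 h.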

How the data were processed

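The authors cultured BJ hTERT fibroblasts, made RNA-Seq libraries from polyA RNA and Ribo-Seq libraries from nuclease-protected monosome fragments after cycloheximide, and aligned the reads with Bowtie to 1 protein-coding transcript per gene (Ensembl release 65; the submitters' processing notes name hg19), keeping reads with a unique hit, so stretches shared by paralogs such as the filamins are lost. The FPKM values that the authors deposited have 3 decimals, with 13279 transcripts in the RNA-Seq table, 11337 in the Ribo-Seq table and 11258 in both. Samples were grouped by the labels.

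Values under 1 FPKM were set to 1, changes are log2 ratios to the control of the same assay, and TE is log2 of density over mRNA. The step between possible FPKM values gave back each library's total and the length of 11254 transcripts. Lengths had from each table alone were the same in 8346 of 9484, so density is mostly per the length used for mRNA. The study's methods state that translation level uses only reads in the coding sequence. Whether the deposited values do so was not tested, and if so a long untranslated part could lower a gene's TE level. The recovered reads serve the counting errors and the members' shares of all reads, and the recovered lengths serve the length trend. Scripts were tested on simulated data. With 1 library per group, no test was run.

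The members and lists were chosen with earlier results of these data known. Named genes are all members, CDKN1A and MDM2, from each other list the 3 tested genes with the largest and the 2 with the lowest TE change at 19 h, and the 3 nearest neighbours of PLEC, NES, FLNA and VIM. A gene that this rule names is not reported here. Alternatives were another floor, a pseudocount, other baselines, filters and call cut-offs, centring and removal of the length trend. Python 3.11.15, numpy 2.4.6 and pandas 2.3.3 were used.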

Additional observations from a re-analysis of the deposited data

Results flagged for a closer look

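In 5 of the 8 members a change from the control lay beyond its 95% counting interval in one direction at one time and in the other direction at another. There was 1 library per time, and these differences were not tested. PLEC mRNA had a log2 change of -0.61 at 6 h and 0.22 at 19 h. FLNA mRNA was at 0.093 at 2 h and -0.12 at 6 h, and FLNC mRNA at 0.26 at 4 h and -0.13 at 6 h. VIM mRNA was at 0.048 at 6 h and -0.29 at 19 h. MACF1 ribosome density was at 0.74 at 19 h and -0.27 at 4 h, on 776 and 722 Ribo-Seq reads against 707 in the control. None of the mRNA changes passed the sliding cut-off.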

How the results depend on the processing

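No paired analysis was possible because each group holds 1 library, and no library could be left out of a group. The baseline mattered most. Against the 2 h library, the members' median density change was -1.03 at 4 h, 0.016 at 6 h and 0.22 at 19 h, and the median TE change was -1.02, 0.26 and 0.25. By member, density at 4 h was then -1.47 in PLEC, -1.83 in NES, -0.80 in FLNA, -1.02 in FLNC, -1.05 in SPTAN1, -1.72 in AHNAK, -0.92 in MACF1 and -0.44 in VIM. At 6 h it was below 0 only in NES (-0.50), AHNAK (-0.21), MACF1 (-0.061) and VIM (-0.48). At 19 h it was below 0 only in NES (-0.36), AHNAK (-0.047) and VIM (-0.59). The highest density values were in FLNC, 0.41 at 6 h and 0.76 at 19 h. TE at 4 h was -1.24 in PLEC, -1.69 in NES, -0.77 in FLNA, -1.16 in FLNC, -0.88 in SPTAN1, -1.59 in AHNAK, -0.70 in MACF1 and -0.48 in VIM. At 6 h it was below 0 only in NES (-0.17), AHNAK (-0.094) and VIM (-0.59), and at 19 h only in VIM (-0.36). The highest TE values were 1.06 in PLEC at 6 h and 0.63 in FLNC at 19 h. Members called in TE were then 0 higher and 6 lower at 4 h, 2 higher at 6 h and 0 higher at 19 h. Against the mean of 0 and 4 h, an alternative chosen after seeing the data, the median TE change was 1.36, 1.64 and 1.70 at 2, 6 and 19 h. With the length trend removed, medians at 2, 4, 6 and 19 h were 1.38, 0.44, 1.53 and 1.81 in density, 1.45, 0.36, 1.57 and 1.72 in TE and -0.032, -0.10, 0.044 and 0.065 in mRNA. Centring on all tested genes gave mRNA 0.063, -0.057 and 0.0002 at 2, 4 and 19 h, density 0.46 at 4 h and 2.12 at 19 h, and TE 0.33 at 4 h and 2.06 at 19 h. It left 3 members called higher in TE at 4 h, beside 4.43% of all tested genes. A 2-fold cut-off called 1 member at 4 h, with a background of 0.87%. A pseudocount gave a median density change of 1.66 at 6 h and 1.87 at 19 h and a TE change of 1.93 at 19 h. For mRNA, the median against 2 h was -0.24 at 6 h and -0.11 at 19 h. Leaving out VIM or MACF1, chosen after seeing the data, gave density 1.81 at 2 h and 2.00 at 19 h and TE 2.04 at 6 h either way, and mRNA -0.22 without VIM and -0.13 without MACF1 at 6 h. The cause of these shifts was not tested. The members' other medians moved by less than the median 95% counting interval, and their other counts of TE calls by at most 1.5 times. For the other lists, an alternative without the length trend, chosen after seeing the data, gave medians of 0.92 against 1.25 in the giant proteins outside the cytoskeleton at 6 h, 0.10 against 0.27 in the linkers at 4 h and -0.018 against -0.27 in the short proteins at 19 h. Depth limits MACF1 most, with 707 to 1122 Ribo-Seq reads.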
